A study of Homo sapiens with 4 samples.

Results

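The net state of SW1353 cells given both interleukin-1α (IL-1) and trichostatin A (TSA) was compared with that of untreated cells, to describe what remained changed when an inflammatory stimulus and a deacetylase inhibitor acted on the same culture. SW1353 is a human chondrosarcoma line used as a stand-in for chondrocytes. The doubly treated sample (IL1_TSA) was exposed to TSA, 250 ng/ml, starting 1 hour ahead of a 6 hour incubation with IL-1. Its comparator was the vehicle control (Con), given DMSO. IL-1 alone for 6 hours (IL1) and TSA alone (Con_TSA) made up the other 2 samples, and their values are set beside those of the comparison. Total RNA of each sample was hybridised to 1 Illumina array, so differences carry no replicate error or p-value, and each value is that of a single RNA sample of a single tumour line. Legends in the study state a longer incubation with IL-1 than the labels do, and the labelled time is used here. Genes were measured when at least 1 of their probes had a detection p-value under 0.01, a rank among the negative control probes, on IL1_TSA or Con. These were 9909 of the 10128 genes detected on any of the 4 arrays.

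IL-1 is sensed by a cell surface receptor that signals through MYD88 and IRAK kinases to NF-κB and to the MAP kinases that activate AP-1. In chondrocytes this programme includes the collagenases and stromelysins that break down cartilage matrix, chemokines that draw leukocytes, and inhibitors such as IκBα that limit the response. TSA blocks the zinc-dependent histone deacetylases (HDACs), enzymes that remove acetyl groups from histones and from other proteins, tubulin among them. Cells given such an inhibitor accumulate acetylated histones, and many genes go up or down.

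The number of probes detected per array ranged from 13070 to 14033, with the highest number on IL1_TSA, whose median raw intensity was 113 against 95.3 on Con. Of the cartilage genes examined as a check of the cell type, 10 of 34 were measured. SOX9, a master regulator of cartilage, was among them, whereas COL2A1 and ACAN, which encode the main collagen and the main proteoglycan of cartilage, were not detected. Of 11 fibroblast markers 10 were measured, and their summed linear level was 81397 on Con and 68115 on IL1_TSA. Of 11 leukocyte markers 3 were measured, with summed levels of 4778 and 3812, and PTPRC, the pan-leukocyte antigen, was not detected. Of 12 endothelial and epithelial markers 4 were measured, with summed levels of 1777 and 1021, and PECAM1 and EPCAM were not detected. The part of these differences in the results below was not tested. All samples were cultures of the SW1353 line, so the sums are RNA levels and not shares of cell types. On an array, fewer cells expressing a gene and less RNA per cell cannot be told apart. Among 11 reference genes, ACTB differed by -0.02 and GAPDH by 0.05 on the log2 scale, and POLR2A, which encodes the catalytic core of the polymerase that makes mRNA, was 2.56-fold lower.

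A gene was called higher or lower when its log2 difference reached 1.5-fold and it was detected on the brighter array. By this rule 1843 genes were higher in IL1_TSA than in Con (18.6% of those measured) and 1882 were lower (19.0%). The remaining 6184 lay within 1.5-fold, and the median difference over all measured genes was -0.03 on the log2 scale. The counts were even, and the sizes were not. The size counts that follow use the bound described at the end of this paragraph where it applied. Differences of at least 4-fold were seen for 92 higher and 49 lower genes, and of at least 8-fold for 28 higher genes and 1 lower gene. At 16-fold or more there were 8 higher genes and 0 lower genes. A total of 8801 genes were detected on both arrays, 729 only on IL1_TSA and 379 only on Con. A gene of these last kinds entered through the array on which it was bright, so it had to differ. Where the dimmer array did not detect a gene, its fold is written as a lower bound, "at least N-fold", against the lowest level of a detected probe on that array. The calls themselves used the measured levels, so a called gene can have a bound under 1.5-fold. Of the higher calls 449 had a bound and 100 had no bound above 1. Of the lower calls the numbers were 342 and 0.

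**Figure D1:**
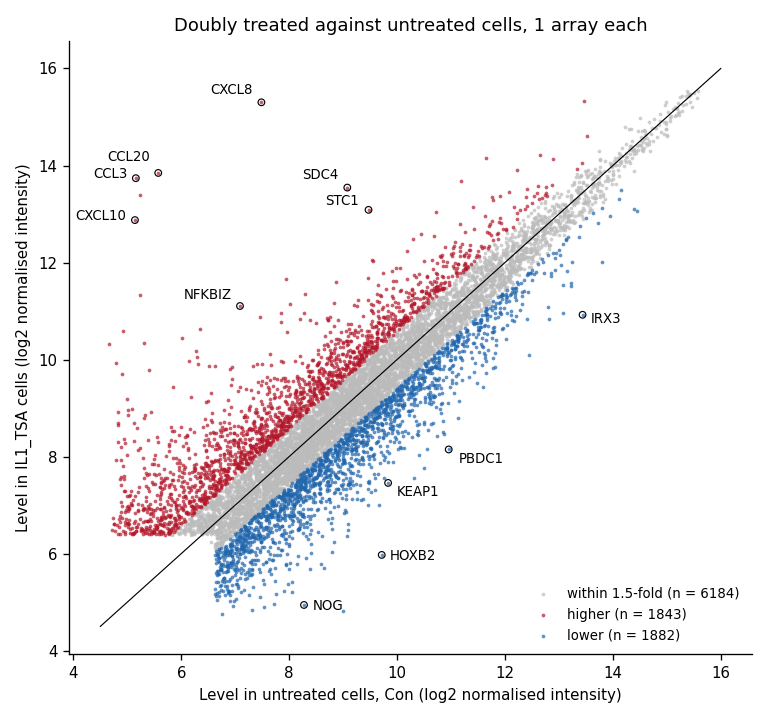
Level of each of the 9909 measured genes on Con (x axis) and IL1_TSA (y axis), in log2 normalised intensity; each point is 1 gene on 1 array per condition, and the line marks equal levels. CXCL8, CCL3, CCL20 and CXCL10 lie furthest above the line, and HOXB2, IRX3, NOG, PBDC1 and KEAP1 lie well below it.

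The counts depended on how intensities were transformed and scaled. In the authors' own log2 values 573 genes were higher (5.78%) and 516 lower (5.21%) at 1.5-fold, and all 1843 and 1882 called genes had the same sign there as here. With arrays scaled to a common median and not by quantiles, the median over all genes moved from -0.03 to 0.17, and 67.4% of the called genes were higher, against 49.5% with the main scaling. The only error that can be read from single arrays is the disagreement between probes of a gene. For genes with several probes its standard deviation was 0.53 on the log2 scale at levels under 7 and 0.17 at levels above 12. Of 391 higher genes with at least 2 probes, 385 had every probe above 0 and 265 (67.8%) had every probe past 1.5-fold. Among 347 lower genes of this kind the numbers were 342 and 234 (67.4%).

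**Figure D2:**
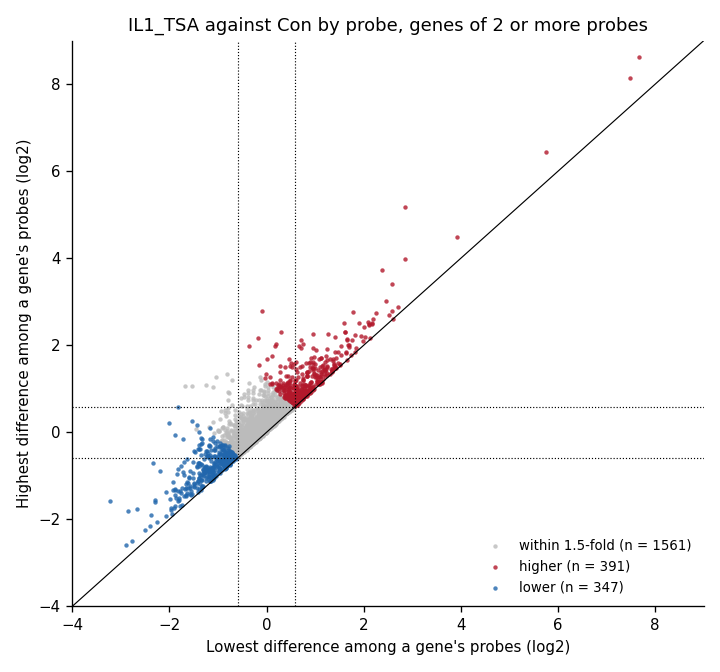
Lowest and highest log2 difference, IL1_TSA against Con, among the probes of each gene with 2 or more probes; each point is 1 gene, the solid line marks agreement between probes, and dotted lines mark 1.5-fold. CXCL8, whose probes gave 7.49 and 8.15, lies at the upper right, and 265 higher genes have every probe past the threshold.

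Values close to the limits show how fine these lines are. TAP2, a peptide transporter of antigen presentation, differed by 0.59 and was called higher. PLAUR, the urokinase receptor, differed by -0.58 and was not called. At the detection limit, 199 genes sat just inside at a p-value of 0.00922 with a median raw intensity of 199 on the brighter array, and 25 sat just outside at 0.0105 with a median of 193.

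Collagenases and stromelysins stayed above the untreated level in doubly treated cells, at levels under those with IL-1 alone. Of 11 matrix metalloproteases measured, of 22 on the array, 6 were higher and 1 was lower, with a median log2 difference of 0.98. Over all genes the median was -0.03. Of the 6, 3 were detected only on IL1_TSA and so entered through that array. The 8 detected on both arrays had 3 higher and 1 lower, with a median of -0.22. MMP13, the collagenase most active on type II collagen, had a level of 10.18 on IL1_TSA and 6.27, not detected, on Con, with 12.70 on IL1 and 7.59 on Con_TSA. It was therefore at least 11.7-fold higher than in untreated cells and lay between the untreated and the IL-1 value. MMP1, the interstitial collagenase, read 9.98 on IL1_TSA, 12.25 on IL1 and 6.15, not detected, on both Con and Con_TSA, a difference of at least 10.2-fold. MMP3, stromelysin 1, read 10.82 on IL1_TSA against 8.38 on Con, 13.90 on IL1 and 8.36 on Con_TSA, and was 5.42-fold higher. Its relative MMP10, stromelysin 2, was 3.91-fold higher, at 11.23 against 9.27, with 12.77 on IL1 and 8.77 on Con_TSA. The order IL1, IL1_TSA, Con was thus shared by these 4 enzymes. MMP12, macrophage elastase, read 6.88 on IL1_TSA and 13.32 on IL1 and was not detected on Con or Con_TSA, which gives a difference of at least 1.19-fold. Of these 5 enzymes it was the furthest from its IL-1 level. MMP9, a gelatinase, was 1.97-fold higher, at 8.09 against 7.11. In the deposited values 4 of the family were past 1.5-fold, and MMP9 and MMP12, at 0.28 and 0.18 on the log2 scale, were not.

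Inhibitors and partner proteases differed in both directions. Among 13 ADAM, ADAMTS and TIMP genes, 2 were higher, 2 were lower and the median was -0.22. TIMP3, a matrix-bound inhibitor of metalloproteases, was 3.05-fold higher, at 11.30 on IL1_TSA, 9.70 on Con, 10.53 on IL1 and 10.84 on Con_TSA, so that each treated array was above the untreated one. In the plasminogen system, whose protease plasmin can activate metalloprotease precursors, 2 of 11 genes were higher and 3 lower. The activators went opposite ways. PLAT, tissue plasminogen activator, read 9.85 on IL1_TSA, 6.93 on Con, 8.26 on IL1 and 8.77 on Con_TSA, a 7.54-fold higher level than Con. PLAU, urokinase, read 8.14 on Con and 7.14 on IL1 and was not detected on IL1_TSA or Con_TSA, and was at least 3.37-fold lower.

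Chemokines gave the largest differences in the comparison. Of 4 CXC chemokines measured 3 were higher and 0 lower, and of 8 CC chemokines 6 were higher and 1 was lower. Detection was limited to IL1_TSA for 2 of the former and 4 of the latter. Another 10 CXC chemokines were detected on neither Con nor IL1_TSA, and 1 of these was detected on IL1. CXCL8, which attracts neutrophils, read 15.30 on IL1_TSA against 7.49 on Con, 15.44 on IL1 and 6.94 on Con_TSA, and was 226-fold higher as measured. Both arrays with IL-1 were near the brightest signals of the array, a raw mean of 43186 of at most 50634 on IL1_TSA, so the fold may be understated and a difference between them could be hidden. CCL20, which attracts CCR6-bearing lymphocytes and dendritic cells, read 13.85 on IL1_TSA, 11.07 on IL1 and under detection on the others, at least 149-fold above Con. It was higher with both agents than with IL-1 alone. CCL3, a macrophage inflammatory protein, was at least 138-fold higher, with 13.74 on IL1_TSA and 13.68 on IL1 and no detection on Con or Con_TSA. CCL3L3 and CCL3L1, near-identical copies of CCL3 whose probes can share its RNA, were at least 108-fold and 26.1-fold higher, and count as uncertain for that reason.

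Other chemokines were well under their IL-1 level. CXCL10, an interferon-inducible attractant of T cells, read 12.87 on IL1_TSA and 14.96 on IL1, with no detection on Con or Con_TSA, a difference from Con of at least 75.9-fold. CCL8, a monocyte attractant, was 3.67-fold higher than Con at 9.20 against 7.32, while IL1 read 15.36. CCL7, of the same family, was 1.73-fold higher at 8.64 against 7.85, with 12.53 on IL1. CCL2, the main monocyte chemoattractant, fell on the other side of the untreated cells. It was detected on Con at 7.34 and on IL1 at 12.56, and was not detected on IL1_TSA or Con_TSA, so that doubly treated cells had at least 1.93-fold less signal than untreated ones. In the deposited values the difference of CCL2 was -0.16, within 1.5-fold.

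Cytokine genes were mostly seen where IL-1 was present. Of 13 interleukins, colony stimulating factors and LIF family cytokines measured 9 were higher and 1 was lower. Of the 13, 8 were detected on IL1_TSA and not on Con, so the count follows in part from how genes entered. The 5 detected on both arrays had 1 higher and 1 lower. A further 14 genes of the list were detected on neither Con nor IL1_TSA, and 4 of these were detected on IL1. IL36G, an IL-1 family cytokine of epithelia, was at least 13.0-fold higher at 10.33 on IL1_TSA, against 12.86 on IL1. IL1B, the IL-1 form made by macrophages, was at least 4.20-fold higher at 8.70, against 11.23 on IL1. IL6, an acute phase cytokine, was at least 4.66-fold higher at 8.85, against 14.31 on IL1. None of these 3 was detected on Con or Con_TSA. IL23A and CSF3 had another order. IL23A, a subunit of interleukin-23, read 8.92 on IL1_TSA and 6.78 on IL1, at least 4.90-fold over Con. CSF3, the granulocyte colony stimulating factor, was detected on IL1_TSA alone, at 7.93 and at least 2.47-fold over Con. Among 20 cytokine receptors 5 were higher and 3 lower, and IL1RAP, the co-receptor of the IL-1 receptor, was at least 2.35-fold higher at 7.86, with 7.69 on IL1 and 7.59 on Con_TSA.

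In the TNF superfamily 6 of 15 genes were higher and 5 lower. Of the 15, 3 were detected only on IL1_TSA and 1 only on Con, and the 11 detected on both arrays had 3 higher and 4 lower. Another 14 genes of the list were detected on neither Con nor IL1_TSA, and 5 of these were detected on IL1. TNFRSF9, the co-stimulatory receptor 4-1BB, was at least 13.1-fold higher at 10.34, with 8.86 on IL1 and no detection on Con or Con_TSA. Its ligand TNFSF9 was 6.67-fold higher, with 11.60 on IL1_TSA, 8.86 on Con, 9.51 on IL1 and 10.84 on Con_TSA. TNFRSF12A, the receptor of the cytokine TWEAK, was 3.04-fold lower, at 10.42 against 12.02, and read 11.98 on IL1 and 10.06 on Con_TSA. TNFRSF14, a receptor of the same family, was 3.32-fold lower, at 6.55 against 8.28. Both arrays with TSA were lower than both without it for these 2 receptors. Growth factors had 2 of 11 genes higher and 4 lower, and 2 each way in the deposited values. VEGFC, a growth factor of lymphatic vessels, was 4.03-fold lower, and HBEGF, an EGF receptor ligand, was 2.84-fold higher.

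NF-κB subunits and their inhibitors remained above untreated cells in all but 1 called gene. Of 10 measured, 7 were higher and 1 lower, with a median of 1.59, and 3 were detected only on IL1_TSA. The 7 detected on both arrays had 4 higher and 1 lower, with a median of 1.27. NFKBIA encodes IκBα, which holds NF-κB in the cytoplasm and is itself a target of NF-κB. Its level was 13.03 on IL1_TSA, 10.72 on Con, 13.73 on IL1 and 8.12 on Con_TSA, 4.96-fold higher than Con, although TSA alone read lowest. NFKB1, the p105 precursor of p50, had the same order, 12.70 on IL1_TSA, 11.43 on Con, 13.26 on IL1 and 9.22 on Con_TSA, and was 2.41-fold higher. NFKBIZ, an atypical nuclear IκB that serves as a co-activator, read 11.10 on IL1_TSA, 7.09 on Con, 10.42 on IL1 and 7.04 on Con_TSA, 16.2-fold higher. Its 2 probes disagreed in size, with log2 differences of 2.86 and 5.18. NFKB2, precursor of p52, was 5.05-fold higher at 9.43 against 7.10, with 9.19 on IL1 and 8.25 on Con_TSA. NFKBIZ and NFKB2 were thus at least as high with both agents as with IL-1 alone. BCL3, another nuclear IκB, was the exception, with 7.66 on IL1_TSA, 9.14 on Con, 10.06 on IL1 and 6.77 on Con_TSA, 2.79-fold lower than in untreated cells.

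Feedback regulators and other targets of NF-κB included 14 higher and 2 lower genes of 19, with 9 detected only on IL1_TSA and 2 only on Con. The 8 detected on both arrays had 5 higher and 0 lower. A further 5 genes of the list were detected on neither Con nor IL1_TSA, and 3 of these were detected on IL1. The counts therefore leave out genes seen with IL-1 alone and not with both agents. TNFAIP3, the deubiquitinase A20 that switches the pathway off, was at least 15.9-fold higher at 10.62, against 11.39 on IL1 and 6.65 on Con_TSA. ZC3H12A, an RNase that degrades cytokine transcripts, was 7.65-fold higher, at 10.78 on IL1_TSA, 7.84 on Con, 11.93 on IL1 and 7.57 on Con_TSA. SOD2, the mitochondrial superoxide dismutase, was 8.30-fold higher at 11.35 against 8.30, with 12.74 on IL1. These 3 genes lay between Con and IL1. ELF3, an epithelial transcription factor, and TNFAIP2 were at least 8.39-fold and 14.1-fold higher, and ELF3 read 9.70 on IL1_TSA against 6.83 on IL1. ICAM1, an adhesion molecule for leukocytes, was detected only on Con, at 7.65, and was at least 2.39-fold lower. In the deposited values 7 of the 19 genes were higher and 0 lower. In prostaglandin, nitric oxide and tetrahydrobiopterin synthesis 5 of 12 genes were higher and 1 lower. PTGS2, cyclo-oxygenase 2, was just over detection with 6.99 on IL1_TSA and 6.98 on IL1, and PTGES, prostaglandin E synthase, was at least 2.97-fold higher at 8.20, with 6.82 on IL1.

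Components of IL-1 receptor signalling differed in both directions. Of 25 measured 8 were higher and 4 lower, with a median of 0.18. MYD88, the adaptor of the receptor, read 7.50 on IL1_TSA and 7.58 on Con_TSA, against 9.17 on Con and 11.26 on IL1, and was 3.19-fold lower than in untreated cells. IRAK2, a kinase that binds MYD88, read 10.12 on IL1_TSA, 7.64 on Con, 11.37 on IL1 and 8.56 on Con_TSA, and was 5.56-fold higher. MAP3K8, a kinase that links NF-κB signalling to ERK, was at least 10.8-fold higher at 10.06, with 10.71 on IL1. The MAP kinase kinases MAP2K6 and MAP2K3 were at least 3.22-fold and 3.92-fold higher, at 8.32 and 8.60 on IL1_TSA and 7.97 and 8.19 on Con_TSA. TLR4, the endotoxin receptor that shares MYD88 with the IL-1 receptor, was at least 4.58-fold lower, with 8.59 on Con, 8.96 on IL1 and no detection with TSA. IKBKE, an inducible IKK-related kinase, read 7.23 against 7.56 on Con and 9.42 on IL1, within 1.5-fold of untreated cells.

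The promoters of 5 genes are printed because they span the outcomes described: CXCL8, NFKBIA, CXCL10 and IFIT1 above the untreated level by different amounts, and TRIM21 under it. They come from RefSeq on GRCh38.p14, run from 250 bases before to 50 bases after the gene start on the gene's strand, and were available for 8198 of the measured genes. Capitals mark matches on either strand to an NF-κB core (GGANNTTCC), an interferon response core (GAAANNGAA) or an AP-1 core (TGANTCA).
CXCL8 (chr4:73740319-73740618, plus strand): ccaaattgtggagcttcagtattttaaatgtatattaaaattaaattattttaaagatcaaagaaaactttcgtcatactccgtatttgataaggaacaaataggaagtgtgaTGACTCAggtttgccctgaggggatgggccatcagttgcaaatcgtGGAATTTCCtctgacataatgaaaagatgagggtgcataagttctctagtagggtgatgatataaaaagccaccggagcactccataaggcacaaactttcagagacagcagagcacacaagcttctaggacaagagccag
NFKBIA (chr14:35404700-35404999, minus strand): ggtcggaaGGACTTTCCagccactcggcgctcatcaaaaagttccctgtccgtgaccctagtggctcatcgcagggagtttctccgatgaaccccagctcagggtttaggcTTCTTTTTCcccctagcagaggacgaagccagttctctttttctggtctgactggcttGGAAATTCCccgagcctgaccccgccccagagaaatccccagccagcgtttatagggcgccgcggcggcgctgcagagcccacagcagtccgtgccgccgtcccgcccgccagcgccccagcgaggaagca
CXCL10 (chr4:76023448-76023747, minus strand): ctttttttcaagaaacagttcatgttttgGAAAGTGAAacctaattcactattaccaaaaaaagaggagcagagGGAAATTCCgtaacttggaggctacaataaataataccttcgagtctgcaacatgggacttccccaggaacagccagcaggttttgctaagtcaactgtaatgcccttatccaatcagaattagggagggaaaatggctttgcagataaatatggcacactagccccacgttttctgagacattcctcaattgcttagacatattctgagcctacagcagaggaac
IFIT1 (chr10:89392373-89392672, plus strand): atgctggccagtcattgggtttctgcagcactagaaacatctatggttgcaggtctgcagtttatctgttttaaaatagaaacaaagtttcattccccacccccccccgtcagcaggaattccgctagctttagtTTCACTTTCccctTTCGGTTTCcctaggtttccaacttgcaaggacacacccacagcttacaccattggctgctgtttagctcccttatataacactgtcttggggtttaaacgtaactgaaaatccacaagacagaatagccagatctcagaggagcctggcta
TRIM21 (chr11:4393653-4393952, minus strand): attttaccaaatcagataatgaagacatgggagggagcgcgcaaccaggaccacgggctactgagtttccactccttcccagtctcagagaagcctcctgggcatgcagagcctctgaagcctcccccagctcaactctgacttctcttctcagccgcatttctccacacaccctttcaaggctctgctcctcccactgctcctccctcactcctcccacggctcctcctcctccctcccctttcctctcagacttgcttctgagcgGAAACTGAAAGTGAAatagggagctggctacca
CXCL8 held the AP-1 core starting 137 bases and the NF-κB core starting 91 bases before the gene start. NFKBIA held NF-κB cores at 242 and 81 bases and the interferon core at 139 bases before it, and CXCL10 the interferon core at 221 and the NF-κB core at 176. IFIT1 held interferon cores at 115 and 102 bases before its start, and TRIM21 a pair that overlapped each other at positions 18 and 24 after it. No match overlapped one of another motif. Of all 27305 promoters listed, 4.59% held the NF-κB core, 8.29% the interferon core and 7.76% the AP-1 core. Among the 8198 promoters of measured genes the shares were 4.5%, 6.2% and 4.6%. A match is a run of letters and not a shown binding site. A promoter was available for 79.1% of the higher genes, 83.5% of the lower genes and 82.7% of all measured genes. Motif shares of higher and lower genes are not compared here.

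Interferon response genes, raised with IL-1 alone, were spread on both sides of the untreated level in doubly treated cells. With IL-1 alone 40 of the 44 measured genes were higher than Con and 0 lower, with a median of 3.02, where 7.32% of all measured genes were higher and 8.11% lower. In IL1_TSA 13 were higher and 12 lower, with a median of -0.10, or 0.12 with median scaling. With TSA alone 7 were higher and 17 lower, with a median of -0.35, where 16.2% and 16.9% of all genes were called. All 3 comparisons share the Con array. A further 15 genes of the list were detected on neither Con nor IL1_TSA, and 13 of these were detected on IL1. Leaving them out therefore removed genes that were at background with both agents and bright with IL-1 alone.

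**Figure D3:**
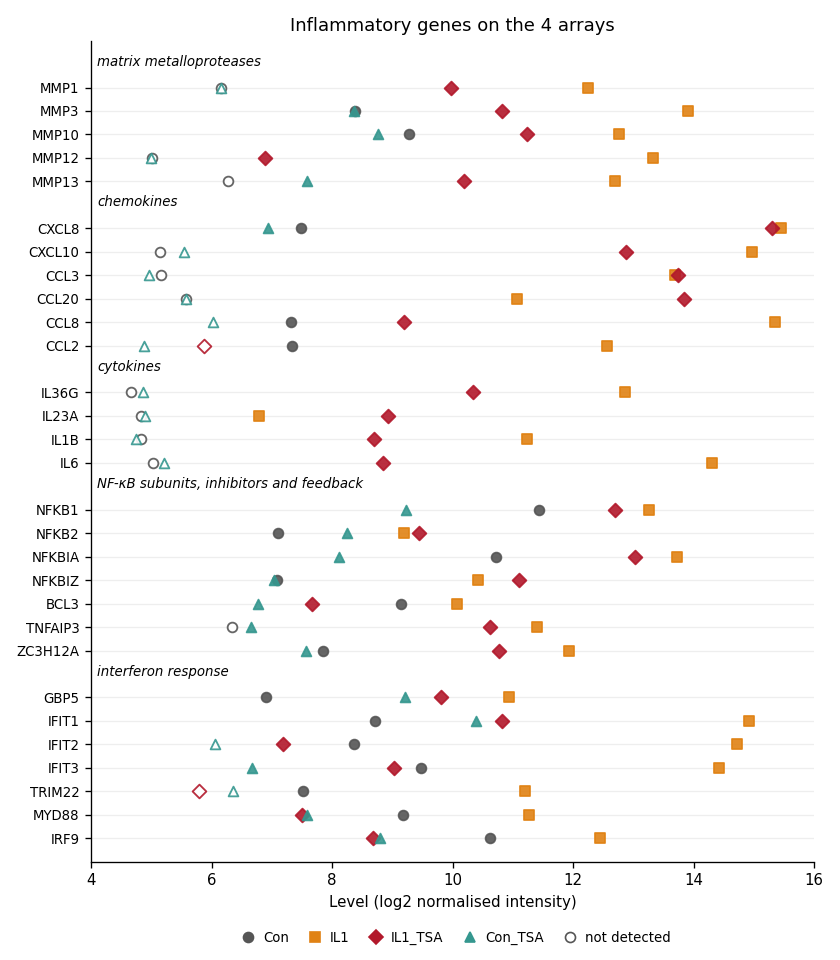
Levels of 29 inflammatory genes (rows, grouped) on the 4 arrays, in log2 normalised intensity; each symbol is 1 array and open symbols mark arrays where no probe of the gene was detected. CXCL8 and CCL3 lie near their IL-1 level in IL1_TSA, MMP1, MMP3, MMP10 and MMP13 in between, and CCL2, BCL3, TRIM22, MYD88 and IRF9 below Con.

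Members of the interferon group differed widely among themselves. IFIT1, an antiviral protein that binds foreign RNA, was 4.30-fold higher, with 10.82 on IL1_TSA, 8.71 on Con, 14.93 on IL1 and 10.38 on Con_TSA. Its neighbour IFIT2 read 7.19 on IL1_TSA, 8.36 on Con and 14.72 on IL1, was not detected on Con_TSA, and was 2.25-fold lower than Con. IFIT3 read 9.03 against 9.47 on Con and 14.42 on IL1, within 1.5-fold of Con. The family therefore had 1 member above, 1 below and 1 at the untreated level, and IL1 was the highest of the 4 arrays for all 3. GBP5 and GBP1, guanylate-binding proteins of host defence, were 7.46-fold and 2.90-fold higher, at 9.80 and 12.03 on IL1_TSA against 10.93 and 13.80 on IL1. TRIM22 and TRIM21, antiviral ubiquitin ligases, were lower, by at least 2.17-fold and by 2.83-fold. TRIM21 read 7.55 on IL1_TSA, 9.06 on Con, 11.11 on IL1 and 7.98 on Con_TSA. In the deposited values 7 interferon genes were higher and 2 lower.

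Calls among STAT, IRF and SOCS genes were near the share over all measured genes in each direction. IRF9, the DNA-binding part of the complex that carries the type I interferon signal, read 8.68 on IL1_TSA and 8.79 on Con_TSA against 10.62 on Con and 12.45 on IL1, and was 3.85-fold lower than Con. STAT6, which carries the interleukin-4 signal, was 2.57-fold lower at 7.33 against 8.70. IRF1, itself an NF-κB target, was 1.98-fold higher at 10.43, with 11.87 on IL1 and 8.46 on Con_TSA. Of 18 STAT, IRF and SOCS genes, 3 were higher and 3 were lower, 16.7% each, against 18.6% and 19.0% of all measured genes. Their median was -0.04, or 0.18 with median scaling. Of 16 genes of MHC class I presentation 4 were higher and 1 lower, with a median of -0.02, or 0.17 with median scaling, 0.02 in the deposited values and 0.03 with the brightest probe, where 11 had been higher with IL-1 alone. TAP1, a peptide transporter, was 2.13-fold higher at 10.75 against 9.67, with 13.28 on IL1. PSMB10, an immunoproteasome subunit, was 1.99-fold lower at 10.88 against 11.87. HLA-B, at 10.24 against 10.33 on Con and 11.95 on IL1, was at the untreated level.

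Calls among AP-1 and early response factors fell on both sides of the untreated level. Of 16 AP-1 and ATF factors 5 were higher and 5 lower. FOS was 6.35-fold higher, with 9.60 on IL1_TSA, 6.93 on Con, 7.12 on IL1 and 9.21 on Con_TSA, so that only the arrays with TSA were raised. FOSL1, a FOS relative prominent in transformed cells, was 2.43-fold lower at 7.93 against 9.21, with 10.03 on IL1 and 7.11 on Con_TSA. ATF3, a stress-induced factor, was 3.01-fold higher at 10.12 against 8.53. Among EGR, KLF and C/EBP factors EGR1 was 4.23-fold higher, at 10.81 against 8.73, and KLF6 was 3.94-fold lower, at 10.84 against 12.82, each with the Con_TSA array on the same side. CEBPD, a mediator of acute phase gene expression, read 10.52 against 10.71 on Con, 13.01 on IL1 and 7.86 on Con_TSA, within 1.5-fold. MYC was 2.12-fold lower and its antagonist MXD1 3.61-fold higher, while MXD4 of the same family was 3.23-fold lower. Among MAP kinase phosphatases and Sprouty-type feedback genes 4 of 14 were higher and 5 lower, with DUSP1 2.71-fold higher and DUSP3 2.58-fold lower. Of 18 regulators of cytokine mRNA decay 5 were higher and 3 lower, and apart from ZC3H12A they lay within 2.31-fold of Con.

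Most HDACs were close to the untreated level. Of 11 zinc-dependent HDACs on the array 7 were measured, with 1 higher and 1 lower, and HDAC5, HDAC7, HDAC10 and HDAC11 were detected on neither array. HDAC3, the catalytic part of the NCoR and SMRT complexes, read 11.61 on IL1_TSA and 11.62 on Con_TSA against 10.43 on Con and 10.26 on IL1, and was 2.25-fold higher. HDAC6, the cytoplasmic tubulin deacetylase, read 7.25 on IL1_TSA, 7.88 on Con, 7.30 on IL1 and 7.41 on Con_TSA. It was 1.55-fold lower, just past the threshold, at a level where probes of a gene disagree by 0.40 on the log2 scale, and its deposited difference was -0.14. HDAC1 and HDAC2, the class I enzymes of the Sin3 and NuRD complexes, differed by 0.21 and 0.22. For HDAC4, HDAC8 and HDAC9 the differences were 0.29, -0.32 and -0.40.

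Enzymes that add or read acetyl groups were lower more often than higher. Of 19 histone acetyltransferases and acetyl readers 3 were higher and 10 lower, with a median of -0.60. CREBBP, a general co-activator acetyltransferase, read 8.98 on IL1_TSA, 10.79 on Con, 10.55 on IL1 and 9.17 on Con_TSA, and was 3.52-fold lower. Its paralogue EP300 was 1.52-fold lower, at 8.30 against 8.90, just past the threshold, and its deposited difference was -0.28. BRPF3 and BRD9, bromodomain proteins of acetyltransferase and remodelling complexes, were 3.08-fold and 2.80-fold lower. ING1, a reader of methylated histone tails, went the other way and was 2.86-fold higher. In the deposited values the list had 1 higher and 3 lower genes. Histone and DNA methylation enzymes had 2 of 23 higher (8.7%) and 8 lower (34.8%), against 18.6% and 19.0% of all measured genes. Their median was -0.07, or 0.12 with median scaling, and in the deposited values 1 was higher and 1 lower. KDM3B was 3.20-fold and SUV39H1 2.63-fold lower, and EZH2 was 1.70-fold higher. Among 24 sirtuins and corepressor partners 4 were higher and 5 lower, with SIRT5 3.19-fold lower and SIRT4 at least 3.53-fold higher. Chromatin remodellers had 4 of 32 higher and 5 lower.

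Histone genes themselves were raised. Of 26 measured, of 75 on the array, 17 were higher and 1 lower, with a median of 0.77, and 12 were higher in the deposited values. Many histone genes are near-identical and their probes can share RNA, so the count of separate genes is uncertain. H2AC11 read 9.87 on IL1_TSA and 9.98 on Con_TSA and was not detected on Con or IL1, at least 9.45-fold higher. H4C14 read 9.90 on IL1_TSA, 7.40 on Con, 7.57 on IL1 and 10.03 on Con_TSA, 5.68-fold higher. H1-10, a linker histone variant, was 3.79-fold higher, at 10.82 against 8.90. For these 3 genes the arrays with TSA did not overlap those without. MACROH2A2, a macroH2A variant found on silent chromatin, was the lower one, 2.86-fold, at 8.04 on IL1_TSA, 9.55 on Con, 10.40 on IL1 and 7.56 on Con_TSA.

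Of 21 genes known to be raised by deacetylase inhibitors in other cells 12 were higher and 3 lower, with a median of 0.65. CDKN1A, the cell cycle inhibitor p21, was 2.20-fold higher, at 10.67 on IL1_TSA, 9.54 on Con, 9.39 on IL1 and 10.23 on Con_TSA. DHRS2, a mitochondrial reductase, was 2.27-fold higher at 12.18 against 10.99. TXNIP, a thioredoxin-binding protein, was 3.46-fold lower at 6.60 against 8.39, with 7.37 on IL1 and 8.77 on Con_TSA, so here only the arrays with IL-1 were lower. Tubulins had 7 of 17 higher and 2 lower. TUBB4A, a β-tubulin of the nervous system, was 8.67-fold higher, with 10.96 on IL1_TSA, 7.84 on Con, 6.80 on IL1 and 10.74 on Con_TSA. Neuronal genes, many of them silenced elsewhere by the repressor REST, had 12 of 26 higher and 4 lower. Of the 26, 10 were detected on IL1_TSA and not on Con, and so entered through IL1_TSA. The 16 detected on both arrays had 4 higher and 4 lower, and the deposited values of the list gave 4 and 3. SYN1, a synaptic vesicle protein, was at least 4.19-fold higher, at 8.70 on IL1_TSA and 8.16 on Con_TSA, with no detection on Con or IL1. STMN4, a microtubule-binding stathmin, was detected only on IL1_TSA, at 7.94.

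Metallothioneins and metal transporters had 7 of 12 genes higher and 0 lower, with a median of 0.86, and 3 were detected only on IL1_TSA. The 9 detected on both arrays had 4 higher and 0 lower, with a median of 0.43. MT1X, a metal-buffering protein, read 15.33 on IL1_TSA, 13.46 on Con, 14.63 on IL1 and 14.76 on Con_TSA, 3.66-fold higher as measured. Its raw intensity on IL1_TSA, 43930, was near the top of the array's range as well, so the fold may be understated. MT1X was higher with both agents than with either. MT3, the neuronal metallothionein, was at least 5.04-fold higher, at 8.96 on IL1_TSA and 8.85 on Con_TSA only. SLC39A14, a zinc and iron importer, was 4.59-fold higher, with 12.49 on IL1_TSA, 10.29 on Con, 12.99 on IL1 and 11.08 on Con_TSA.

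**Figure D4:**
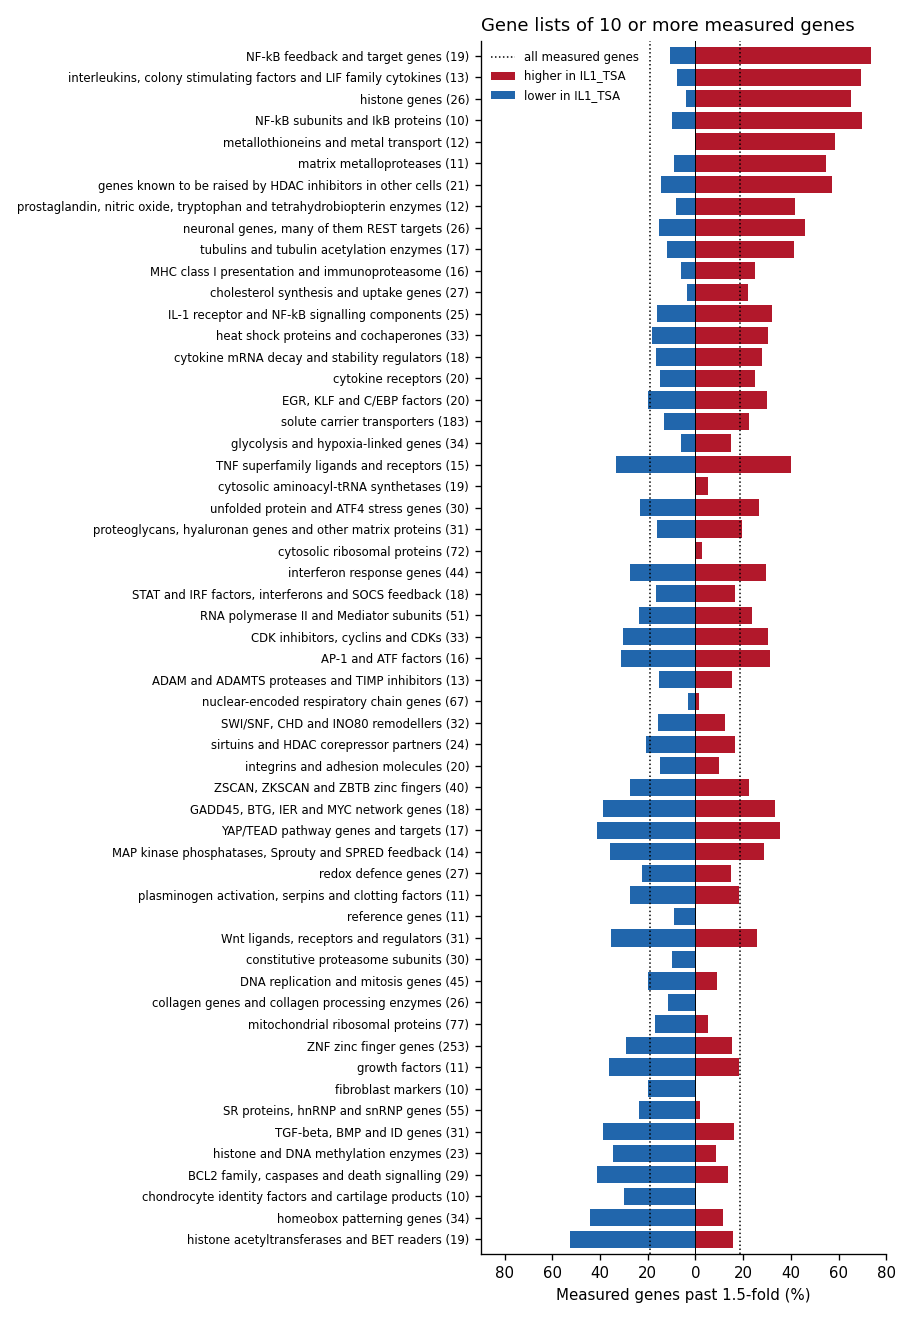
Share of measured genes past 1.5-fold higher (right) or lower (left) in IL1_TSA than in Con for each gene list with 10 or more measured genes, whose number stands in brackets; dotted lines mark all measured genes, 18.6% and 19.0%. NF-κB feedback genes, cytokines, histones and metallothioneins lie at the top, and homeobox genes and acetyltransferases at the bottom.

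Cell cycle genes were mixed. Of 33 CDK inhibitors, cyclins and CDKs 10 were higher and 10 lower. CCND3, cyclin D3, read 12.59 on IL1_TSA, 10.45 on Con, 11.74 on IL1 and 12.23 on Con_TSA and was 4.40-fold higher, while CCND1, cyclin D1, was 1.57-fold lower at 12.48 against 13.13. CDKN2D, the inhibitor p19, was 4.36-fold higher at 9.97 against 7.84. DNA replication and mitosis genes had 4 of 45 higher and 9 lower. Apoptosis genes had 4 of 29 higher and 12 lower, with a median of -0.15, or 0.08 with median scaling, and in the deposited values 3 were higher and 4 lower. BCL2L1, which encodes the survival protein BCL-XL, read 9.15 on IL1_TSA, 11.15 on Con, 10.72 on IL1 and 9.14 on Con_TSA and was 3.99-fold lower. BIK, a BH3-only protein that promotes death, was at least 3.87-fold higher, at 8.58 on IL1_TSA and 7.67 on Con_TSA, without detection on the others. APAF1, the scaffold of caspase 9, was 2.61-fold higher, and CASP1 and CASP4, the inflammatory caspases, were 1.80-fold and 1.78-fold lower. In the deposited values CASP1 was at -0.10 and CASP4 at -0.55 on the log2 scale, both within 1.5-fold. With its brightest probe CASP1 was at -0.43. CASP1 and CASP4 were brightest on IL1, at 9.25 and 11.72.

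Heat shock and stress genes were likewise divided. HSPA1A and HSPA1B, near-identical stress-inducible HSP70 genes that cannot be separated with confidence, were 5.62-fold and 5.67-fold higher. HSPA1A read 13.68 on IL1_TSA, 11.19 on Con, 11.92 on IL1 and 13.10 on Con_TSA. HSPB3, a small heat shock protein of muscle, was 3.18-fold lower. Over 33 heat shock genes and cochaperones 10 were higher and 6 lower. In the unfolded protein and ATF4 response 8 of 30 genes were higher and 7 lower, with HSPA5, the chaperone BiP, 2.28-fold higher and TRIB3 3.91-fold and XBP1 2.24-fold lower. Redox genes had 4 of 27 higher and 6 lower. KEAP1, the adaptor that marks NRF2 for degradation, was 5.19-fold lower at 7.46 on IL1_TSA, 9.83 on Con, 9.48 on IL1 and 7.99 on Con_TSA. NFE2L2, which encodes NRF2, was 1.51-fold lower, just past the threshold, and its deposited difference was -0.52, within 1.5-fold. GCLC, an enzyme of glutathione synthesis, was 1.98-fold higher.

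Of 34 glycolysis and hypoxia-linked genes 5 were higher and 2 lower. STC1, a secreted glycoprotein of calcium and phosphate balance, read 13.09 on IL1_TSA, 9.47 on Con, 10.74 on IL1 and 12.61 on Con_TSA and was 12.3-fold higher. Its relative STC2 was 3.09-fold lower, at 9.57 against 11.20. SLC2A3, the glucose transporter GLUT3, was 3.21-fold higher at 13.91 against 12.23, and SLC2A14, its close copy, at least 4.27-fold higher. Cholesterol synthesis and uptake genes had 6 of 27 higher and 1 lower, with HMGCS1, an enzyme of the mevalonate pathway, 2.11-fold higher and INSIG1, a sterol sensor partner, 1.94-fold higher. Over 183 solute carriers 41 were higher and 24 lower. SLC7A2, a transporter of arginine, was 4.65-fold higher, at 9.89 on IL1_TSA, 7.67 on Con, 8.66 on IL1 and 10.10 on Con_TSA.

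Few collagen genes differed. Of 26 collagens and collagen-processing enzymes 0 were higher and 3 lower, with a median of -0.21. COL1A1, the type I collagen chain, was 1.60-fold lower, at 12.39 on IL1_TSA, 13.07 on both Con and IL1 and 12.77 on Con_TSA, and SERPINH1, a collagen chaperone, was 1.92-fold lower. Proteoglycan and hyaluronan genes had 6 of 31 higher and 5 lower. SDC4, a heparan sulphate proteoglycan of the cell surface, read 13.55 on IL1_TSA, 9.08 on Con, 12.18 on IL1 and 10.39 on Con_TSA and was 22.1-fold higher, above either agent alone. CD44, the hyaluronan receptor, was 3.75-fold higher, at 11.89 against 9.98, with 11.55 on IL1 and 9.99 on Con_TSA. TNFAIP6, a hyaluronan-binding protein of inflamed joints, was at least 8.90-fold higher at 9.78, against 12.85 on IL1. HAS2, a hyaluronan synthase, was detected on Con alone, at 6.96, and was at least 1.48-fold lower, with a deposited difference of -0.22. CEMIP, which takes part in hyaluronan degradation, was 1.78-fold lower at 11.35, with 12.18 on Con and 13.89 on IL1. Adhesion genes had 2 of 20 higher and 3 lower. SELE, E-selectin, was detected only on IL1_TSA, at 8.28 and at least 3.15-fold over Con.

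Regulators of skeletal identity and patterning were lower more often than higher. Of 10 cartilage genes measured 0 were higher and 3 lower, with a median of -0.11, or 0.11 with median scaling. In the deposited values 0 of them were higher and 0 lower. RUNX2, a factor of hypertrophic chondrocytes and bone, read 6.45 on IL1_TSA, 8.53 on Con, 8.69 on IL1 and 6.69 on Con_TSA and was 4.22-fold lower. Its level on IL1_TSA was close to the lowest detected level there, 6.39, and its deposited difference was -0.52. SOX9 was 1.64-fold lower, at 9.60 on IL1_TSA, 10.32 on Con, 9.88 on IL1 and 10.01 on Con_TSA, and NKX3-2, which keeps chondrocytes immature, was 1.77-fold lower. Of 34 homeobox and related patterning genes, 4 were higher (11.8%), 15 were lower (44.1%) and the median was -0.55. Over all measured genes the shares were 18.6% and 19.0%. Of the 34, 3 were detected only on IL1_TSA and 6 only on Con, and so entered through 1 array. The 25 detected on both arrays had 2 higher and 10 lower, with a median of -0.41. HOXB2 had the largest decrease, from 9.72 on Con and 9.53 on IL1 to no detection on IL1_TSA and Con_TSA, and fell by at least 3.32 on the log2 scale (a bound of -3.32). IRX3 read 10.92 on IL1_TSA, 13.44 on Con, 13.07 on IL1 and 10.68 on Con_TSA, 5.72-fold lower. TBX2 and DLX5, factors of limb and bone development, were 3.19-fold and 3.04-fold lower, and for these 2 IL1 was low as well, at 7.63 and 7.03. In the deposited values the homeobox list had 0 higher and 7 lower genes.

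Genes of the TGF-β and BMP families were also lower more often than higher, and Wnt genes were called more often than all genes in both directions. Of 31 TGF-β, BMP and ID genes, 5 were higher, 12 were lower and the median was -0.39. NOG, noggin, a secreted inhibitor of BMP, read 8.27 on Con and 8.17 on IL1, was not detected on the arrays with TSA, and was at least 3.69-fold lower. BMP4, a ligand that noggin binds, was 2.91-fold lower, at 9.12 on IL1_TSA, 10.66 on Con, 10.01 on IL1 and 9.71 on Con_TSA. The ligands INHBE, TGFB3 and TGFB2 were 4.86-fold, 2.51-fold and 2.34-fold lower. Wnt genes had 8 of 31 higher (25.8%) and 11 lower (35.5%), against 18.6% and 19.0% of all measured genes. Their median was -0.26, or -0.06 with median scaling, and in the deposited values 4 were higher and 7 lower. WNT5B, a ligand expressed in cartilage, read 8.42 on IL1_TSA, 10.73 on Con, 9.78 on IL1 and 8.77 on Con_TSA and was 4.98-fold lower, and LEF1, a transcription factor of the pathway, was 3.25-fold lower. The inhibitors DACT1 and DACT3 diverged, with DACT1 3.80-fold lower and DACT3 6.24-fold higher. FZD9, a Wnt receptor, was at least 6.95-fold higher, at 9.43 on IL1_TSA and 9.49 on Con_TSA. Among YAP and TEAD genes, 6 of 17 higher and 7 lower, YAP1 was 2.79-fold lower and CCN2, a target of the pathway also known as CTGF, was 2.84-fold higher.

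**Figure D5:**
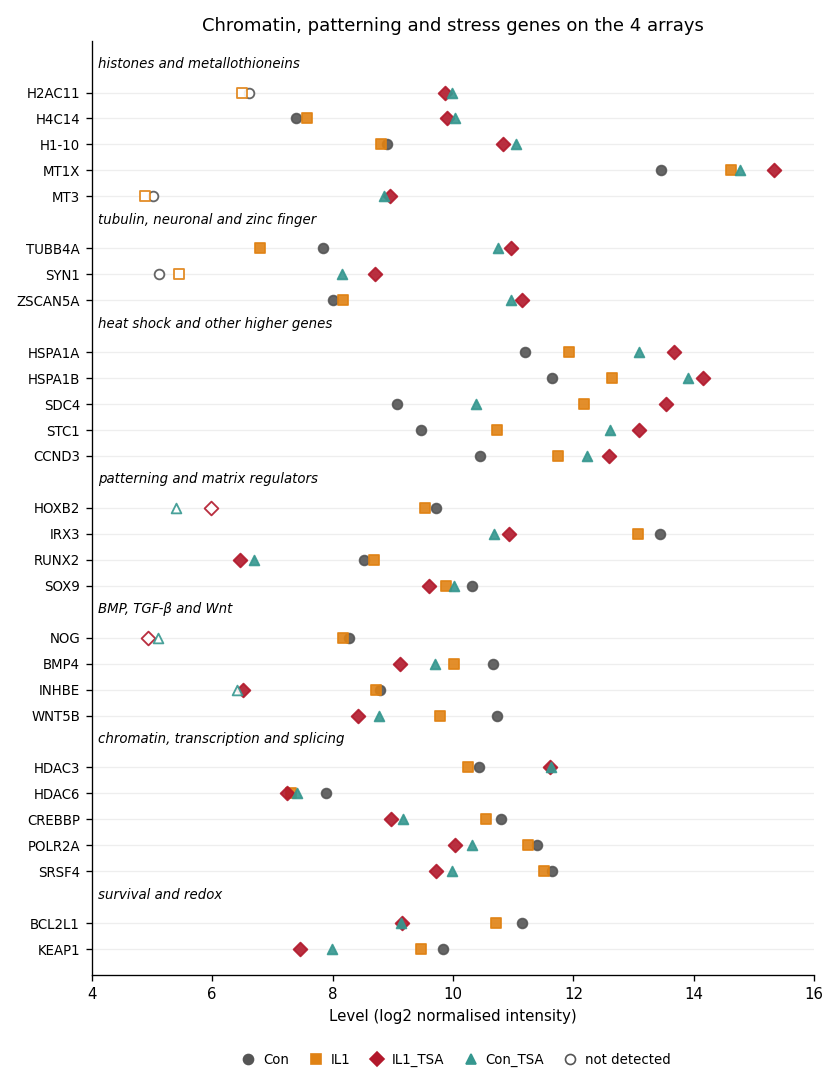
Levels of 28 chromatin, patterning, stress and signalling genes (rows, grouped) on the 4 arrays, in log2 normalised intensity; each symbol is 1 array and open symbols mark arrays where no probe of the gene was detected. For most rows IL1_TSA and Con_TSA lie together and apart from Con and IL1. Rows further from Con in IL1_TSA than in either single treatment include MT1X, STC1, SDC4 and BMP4.

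Few genes of translation and energy supply were called. Of 72 cytosolic ribosomal protein genes, 2 were higher, 0 were lower and the median was -0.02, or 0.04 both with median scaling and in the deposited values. Of 67 respiratory chain genes 1 was higher and 2 lower, of 30 proteasome subunits 0 and 3, and of 19 cytosolic tRNA synthetases 1 and 0. Mitochondrial ribosomal proteins had 4 of 77 higher and 13 lower, among which MRPL27 was 3.34-fold lower. Splicing factors had 1 of 55 higher (1.8%) and 13 lower (23.6%), against 18.6% and 19.0% of all measured genes. Their median was -0.26, or -0.06 with median scaling and -0.12 in the deposited values. SRSF4 and SRSF5, SR proteins that guide splice site choice, were 3.78-fold and 2.44-fold lower, at 9.72 and 10.29 against 11.64 and 11.58. RNA polymerase II and Mediator genes had 12 of 51 higher and 12 lower, with MED16 2.83-fold lower and MED26 2.41-fold higher. ZNF zinc finger genes, mostly repressors of low level, had 39 of 253 higher and 74 lower with a median of -0.13, or 0.09 with median scaling. In the deposited values only 2 were higher and 10 lower. Of the 253, 32 were detected only on IL1_TSA and 28 only on Con. The 193 detected on both arrays had 19 higher and 51 lower. ZSCAN5A and ZSCAN5B, related zinc finger genes whose probes may share RNA, were 8.74-fold and at least 9.67-fold higher.

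Some of the largest differences lay outside these lists. Among genes detected on both arrays, C11orf96, of unsettled function, was 13.2-fold higher, with 11.66 on IL1_TSA, 7.94 on Con, 12.84 on IL1 and 8.86 on Con_TSA. XIRP1, an actin-binding protein of striated muscle, was 10.7-fold higher, at 10.88 on IL1_TSA, 7.45 on Con, 8.50 on IL1 and 6.86 on Con_TSA. PIM2, a survival kinase, was 6.47-fold higher, at 10.96 on IL1_TSA, 8.27 on Con, 9.58 on IL1 and 9.71 on Con_TSA. XIRP1 and PIM2 were higher with both agents than with either alone. OLR1, the receptor of oxidised lipoprotein, was at least 15.7-fold higher, at 10.60 on IL1_TSA and 10.85 on IL1 only.

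The lower side was led by genes of varied function. PBDC1, of unsettled function, read 8.15 on IL1_TSA, 10.96 on Con, 10.92 on IL1 and 8.02 on Con_TSA, 7.01-fold lower. CPEB2, a translation regulator that binds mRNA tails, read 7.56, 10.31, 10.34 and 7.83 on the same arrays in the same order, 6.74-fold lower. CTHRC1, a secreted protein with a collagen-like repeat, was 6.69-fold lower, with 7.76 on IL1_TSA and 10.50 on Con. IRS1, an adaptor of the insulin and IGF receptors, was 5.29-fold lower, at 8.47 against 10.88. MEPCE, which caps the 7SK RNA that restrains transcription elongation, was 5.28-fold lower, at 8.15 against 10.55. NNMT, nicotinamide N-methyltransferase, was 5.08-fold lower at 8.79 against 11.14, with 11.79 on IL1 and 9.07 on Con_TSA. The other genes of this rank were AP5S1, CCDC102A, SERTAD4, NEK6, SYNC, CCDC9B and RIN2, between 5.05-fold and 6.30-fold lower. Genes lost from detection included SYNPO2L, an actin-associated protein of muscle, at least 6.42-fold lower, and FOXF2, a mesenchymal transcription factor, at least 5.30-fold lower.

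Gene length was not part of how genes were chosen. The 92 genes at least 4-fold higher had a median length of 11.4 kb in the RefSeq table of GRCh38.p14, against 29.4 kb over all measured genes, 31.9 kb over all higher genes and 27.7 kb over all lower genes. Shorter genes were thus seen among the largest increases and not among the increases as a whole.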

How the data were processed

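Each of the 4 samples was 1 array. The authors deposited probe intensity values, background and normalisation between arrays left out, for 48784 probes, with a detection p-value per probe that the deposited table ranks against negative controls. A second deposited table holds log2 values, per the methods from lumi (variance stabilising transformation, robust spline); the sources used here state no version of it. Medians of its columns were 7.20, 7.19, 7.20 and 7.20 (Con, IL1, IL1_TSA, Con_TSA), and its centring is unknown.

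Intensities were corrected and quantile normalised over the 4 arrays with neqc of limma 3.58.1 (R 4.3.3, offset 16), which was tested on simulated data, and taken to log2. A probe was detected at a p-value under 0.01. Of 48784 probes, 27565 have 1 gene in the platform annotation, 13 have several or none, and 21206 are not listed; the annotation is of an earlier design than the array the methods name. Gene numbers of 27528 probes matched RefSeq (GRCh38.p14), which changed 0 symbols. Probes of a gene that were detected on either array were averaged; 12631 of 14692 detected probes gave the 9909 genes. Levels are compared between arrays, not between probes. Where the dim array did not detect a gene, or its level lay under that array's lowest detected level, the fold is a bound against the higher of those values, given only if above 1. The number of arrays limits the precision.

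The comparison, the 62 gene lists and the alternatives were chosen with earlier results of these data known. Named genes are the 15 largest increases and decreases detected on both arrays with probes in agreement, the 10 largest bounds each way, up to 6 per list by difference and 6 by range over the arrays, the 6 highest members of lists with under 10% called, and fixed genes (5 metalloproteases, IL6, CXCL8, NFKBIA, HDACs, ACTB, GAPDH, POLR2A). Marker genes not detected were named after their values were seen. SOX9, COL2A1 and others of the cartilage list served as the check of cell type.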

Additional observations from a re-analysis of the deposited data

Results flagged for a closer look

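Probes for which the annotation lists no gene were left out of the comparison and carried signal too. Of 2061 such probes detected on IL1_TSA or Con, 418 (20.3%) were at least 1.5-fold higher in IL1_TSA and 342 (16.6%) lower, against 18.6% and 19.0% of the named genes. With 1 array per condition no sample could be compared with others of its group.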

How the results depend on the processing

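No paired analysis was possible because each condition was 1 array; for the same reason no replicate could be left out. The main counts were 1843 higher and 1882 lower genes, 49.5% of calls higher. They were 573, 516 and 52.6% in the authors' deposited values, and 902, 832 and 52.0% at 2-fold by measured levels. With bounds where they applied, 670 and 685 genes reached 2-fold. The values were 265, 234 and 53.1% where a gene needed at least 2 probes and all of them past 1.5-fold, which tested fewer genes. Median scaling gave 2611 higher, within 1.5 times the main count, 1261 lower and 67.4% higher. Genes detected on both arrays gave 1307, 1532 and 46.0%. No background correction, normalising only the 2 arrays, a detection p-value under 0.05 and the brightest probe kept the counts within 1.5 times and the share between 48.8% and 50.2%. Of 372 called genes among those eligible for naming, 190 kept their call in all 5 alternatives that rescaled values or chose another probe, and 196 in the deposited values. Of their signs 1 turned: VARS1, called higher, was -0.02 with its brightest probe. The median of 18 of the 62 lists, rounded to 2 decimals, changed sign in at least 1 of these 5. Without background correction most differences of genes undetected on the dimmer array shrank. Among genes printed with a plain fold NFKBIZ was at 3.35, RUNX2 at -1.46, INHBE at -1.65, CCDC102A at -1.93 and SERTAD4 at -1.86 on the log2 scale. Each of these differences was smaller than the main one by more than 0.585, so the fold shrank by over 1.5 times. NFKBIZ was at 5.18 with its brightest probe. The cause of the fewer calls in the deposited values was not tested. For dim genes precision is limited by signal over background, as probes of a gene disagreed by 0.53 at levels under 7, near the 1.5-fold threshold of 0.585.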
